A study of Arabidopsis thaliana with 12 samples.

Results

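The 5 Arabidopsis thaliana genes described here encode the enzymes that attach and complete the lipoyl cofactor: the plastid lipoyl synthase LIP1P (AT5G08415), the mitochondrial lipoyl synthase LIP1 (AT2G20860), the mitochondrial octanoyltransferase LIP2 (AT1G04640) and the plastid octanoyltransferases LIP2P (AT4G31050) and LIP2P2 (AT1G47578). They were taken by gene identifier from the 32833 genes of the deposited table, and all 5 had enough reads to be among the 20891 genes tested. RNA came from whole seedlings aged 8 days, as 3 libraries in each of 4 groups. The groups combined a line labelled KC, taken here as the control, or the line phod2 with growth in P+ or in P-, read here as the HP and LP conditions of the design text and as high and low phosphate. The labels do not spell out KC, do not say which gene is altered in phod2, and give no phosphate concentration or harvest time. The KC P+ columns of the table are headed WT, so a difference between WT and KC, if they are different lines, would be part of every comparison with KC P+. The series title names LIP1P, which makes its level in phod2 and the levels of its partner enzymes the question asked here.

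Lipoyl groups are swinging arms on the acyltransferase (E2) subunits of 2-oxoacid dehydrogenases and on the H protein of glycine decarboxylase. An octanoyltransferase first moves an octanoyl chain from acyl carrier protein to a lysine of the target protein. Lipoyl synthase, an iron-sulfur enzyme of the radical SAM family, then inserts the sulfur atoms. In plants plastids and mitochondria each carry out this pathway, and the plastid pyruvate dehydrogenase that depends on it supplies acetyl-CoA for fatty acid synthesis.

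The synthases share the spacing of cysteines that radical SAM enzymes use to hold a cluster, and the stretch that encodes it is shown because it marks LIP1P and LIP1 as the same kind of enzyme. It was found by reading the coding sequence in frame for a cysteine codon, 3 other codons, a cysteine codon, 2 other codons and a cysteine codon. Capitals mark the cysteine codons.
LIP1P: TGTactcgtggcTGTagattcTGT
LIP1: TGTacacgcggcTGCaggtttTGT
The LIP1P stretch is codons 158 to 165, in the second coding exon (chr5:2712441-2712464, minus strand, coordinates shared by the table and RefSeq's TAIR10.1 assembly). The LIP1 stretch is codons 134 to 141 on chromosome 2 and is split by an intron. None of the transferase genes held this spacing.

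LIP1P spans 2710781 to 2713255 of chromosome 5 on the minus strand with 7 coding exons, and LIP1 spans 8979554 to 8981923 of chromosome 2 on the plus strand with 4. Over 1080 aligned coding bases they were 63.8% identical, and their longest identical run was 13 bases. LIP2 (chromosome 1, 1292023 to 1293398) has 1 coding exon. LIP2P (chromosome 4, 15114250 to 15115633) and LIP2P2 (chromosome 1, 17484348 to 17485470) each have 4 coding exons and lie on the plus strand, as does LIP2. The plastid transferases are the closest pair, with 82.05% identity over 830 aligned bases. Their longest shared run is shown because reads that lie within it cannot be assigned to either gene:
LIP2P and LIP2P2: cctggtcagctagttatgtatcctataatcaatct
It is 35 bases long and crosses an intron in both genes. A read that covers more coding bases than this differs between the copies. The sources used here do not say how reads that matched both copies were counted.

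The stretch between LIP2P and its divergent neighbour AT4G31040 is shown because LIP2P had the largest difference between conditions among the 5 genes, and this stretch holds the motif match found in the members. Capitals mark the evening element, AAAATATCT, a motif named for clock-controlled promoters in Arabidopsis (chr4:15114127-15114249, TAIR10.1, plus strand).
LIP2P upstream: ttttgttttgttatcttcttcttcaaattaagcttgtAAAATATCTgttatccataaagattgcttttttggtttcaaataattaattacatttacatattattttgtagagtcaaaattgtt
The match lies 86 to 78 bases before the annotated start. In the 300 bases before the start, searched on both strands, 1 of the 5 members held this element, against 2.79% of 27438 protein-coding genes. The phosphate-response motif P1BS, GNATATNC, was in 0 members and 6.51% of genes. The G-box, CACGTG, was in 0 members and 7.09% of genes. These are letter matches in 1 window and are given as a description.

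Library totals ran from 16821084 to 23327960 counts. Of 5 photosynthetic shoot markers 4 were detected in every library, with LHB1B2 listed at 0 in all, and 7 of 7 root markers were detected in every library, as whole seedlings hold both organs. The summed level of the root markers in KC was 299.8 to 322.4 FPKM with P+ and 129.9 to 138.9 with P-. For phod2 it was 239 to 263.2 with P+ and 82.5 to 90.7 with P-. This sum was lower in P- and lower in phod2, as LIP1P was. AED3 weighs most in it, at 39.9 to 243 FPKM over all libraries, while SCR ran from 14.3 to 20.3. The sum therefore follows AED3 most, and no sum without AED3 was made. Seed markers, of which 2 to 3 of 4 were detected in every library of a group, summed for KC to 1.32 to 1.89 FPKM with P+ and 0.72 to 0.91 with P-, and for phod2 to 4.15 to 4.37 and 22.2 to 23.6. Their sum was higher in phod2 in both conditions, where LIP1P was lower. CRA1 had the highest single level among them, up to 18.5 FPKM. The part of either list in the results was not tested. In RNA from whole seedlings, fewer cells of a type and less RNA per cell cannot be told apart. Replicate 2 of phod2 P- deviated from the mean of its group with gene length (Spearman -0.69 across genes, against 0.57 and 0.58 in the group's other libraries). Deviations from a shared mean balance each other, so the opposite values need not be separate trends. Values without replicate 2 are given for the results it moves most.

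LIP1P was highest in KC P+ and lowest in phod2 P-. Levels are in FPKM, which scales counts by exonic length and by the library's total and so can be compared between genes. In KC P+ the libraries had 21.95, 20.91 and 22.77 FPKM, and in KC P- 16.21, 15.49 and 15.97. In phod2 P+ they had 13.77, 14.11 and 12.88, and in phod2 P- 8.37, 8.64 and 9.24. No pair of these groups overlapped, so the order was KC P+, KC P-, phod2 P+, phod2 P-, and the control in P- stood above phod2 in P+. The group means were 21.9 ± 0.932, 15.9 ± 0.367, 13.6 ± 0.635 and 8.75 ± 0.445 (SD, n = 3). Each library held 230 to 797 LIP1P counts.

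LIP1P was 1.63-fold lower in phod2 than in KC in P+ and 1.78-fold lower in P-, and the 95% intervals of the log2 differences, -0.85 to -0.56 and -0.99 to -0.68, stopped short of 2-fold. The adjusted p was 2.5e-06 and 1.6e-06 (edgeR's quasi-likelihood test, Benjamini-Hochberg over all tested genes). Without phod2 P- replicate 2 the log2 differences were -0.73 and -0.85 and still passed. Of all tested genes 9.07% differed downward by at least as much in P+ and 4.07% in P-. Between conditions LIP1P was 1.36-fold lower in P- in KC (log2 -0.44 ± 0.067, SE, adjusted p = 5.38e-05) and 1.49-fold lower in phod2 (-0.57 ± 0.073, adjusted p = 8.29e-06). The test of whether these 2 changes differ gave -0.13 with an interval of -0.34 to 0.08 (adjusted p = 0.442).

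The genes on either side of LIP1P were not lower in phod2 at the threshold. AT5G08420, whose start lies 91 bases from that of LIP1P on the other strand, differed by 0.04 ± 0.070 in P+ and -0.05 ± 0.070 in P- (log2 ± SE, adjusted p = 0.741 and 0.655). FTRA2, which encodes a subunit of ferredoxin-thioredoxin reductase and lies 182 bases beyond the other end, differed by -0.06 ± 0.113 in P+ (adjusted p = 0.729) and was higher by 0.36 ± 0.116 in P- (adjusted p = 0.0391).

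LIP1, the mitochondrial counterpart, had the highest level of the 5 genes in every library. For KC it stood at 60.62, 60.02 and 62.61 FPKM with P+ and at 55.76, 54.99 and 55.4 with P-. For phod2 it stood at 63.97, 66.53 and 65.35 with P+ and at 57, 66.02 and 57.67 with P-. The highest value of the last group was that of replicate 2, the library with the length trend, and it overlapped the phod2 P+ range. Between phod2 and KC, LIP1 differed by 0.08 in P+ (95% interval -0.08 to 0.24, adjusted p = 0.470) and by 0.15 in P- (-0.01 to 0.32, adjusted p = 0.164). The P- difference passed once the length trend was removed (0.21, adjusted p = 0.0277) and shrank to 0.06 without phod2 P- replicate 2 (adjusted p = 0.25). Between P- and P+, LIP1 differed by -0.12 in KC (-0.28 to 0.04, adjusted p = 0.181) and by -0.05 in phod2 (-0.21 to 0.12, adjusted p = 0.594). Without phod2 P- replicate 2 these were -0.12 and -0.12, with adjusted p of 0.00101 and 0.00321, and on the log2(FPKM + 1) scale the KC difference passed too (-0.14, adjusted p = 0.0426).

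The plastid enzyme's part of the synthase transcripts was lower in P- and lower in phod2. Of the summed FPKM of LIP1P and LIP1, LIP1P made up 26.4% ± 0.458 (P+) and 22.3% ± 0.282 (P-) for KC, and 17.2% ± 0.667 (P+) and 12.7% ± 1.12 (P-) for phod2 (SD, n = 3). The ranges of the 4 groups did not overlap, from 25.8% to 26.7% in the first to 11.6% to 13.8% in the last. This share is a description of 2 members and was not tested.

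**Figure D1:**
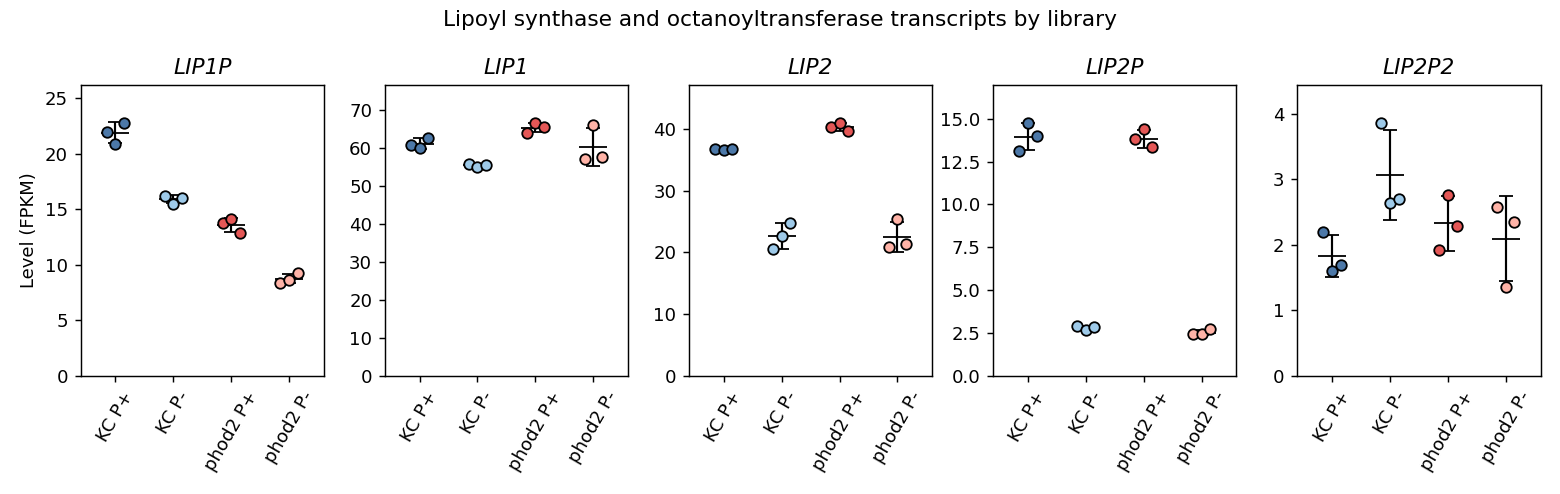
Level of each gene in FPKM (y axis, linear from 0, own scale in each panel) in the 3 libraries of each group (x axis). Points are libraries, horizontal marks the mean and bars the SD; LIP1P group means run from 21.9 FPKM (KC P+) to 8.75 (phod2 P-), and LIP2P separates P+ (13.1 to 14.8) from P- (2.42 to 2.87).

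Of the transferases, LIP2 and LIP2P were lower in P- in both lines. LIP2, which serves the mitochondrial complexes, had 36.79, 36.58 and 36.86 FPKM in KC P+ and 20.64, 22.66 and 24.71 in KC P-. In phod2 it had 40.38, 41.04 and 39.79 in P+ and 20.94, 25.38 and 21.31 in P-. All P- libraries lay below all P+ libraries in each line. LIP2 was 1.60-fold lower in P- in KC (log2 -0.68 ± 0.094, adjusted p = 2.22e-05) and 1.71-fold lower in phod2 (-0.77 ± 0.094, adjusted p = 5.11e-06). The difference between these changes was -0.10 (95% interval -0.38 to 0.19, adjusted p = 0.683), or -0.19 without phod2 P- replicate 2 (adjusted p = 0.0864).

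Between phod2 and KC, LIP2 differed by 0.12 in P+ (95% interval -0.07 to 0.32, adjusted p = 0.358) and by 0.02 in P- (-0.18 to 0.23, adjusted p = 0.881). The P- difference took the other sign without phod2 P- replicate 2 (-0.09, adjusted p = 0.322) and without KC P- replicate 1 (-0.04, adjusted p = 0.848). The start of LIP2 overlaps the end of EMB1687 on the same strand (1291300 to 1292024), which held 496 counts over all libraries, fewer than LIP2 held in any 1 of them.

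LIP2P, which provides octanoyl groups for the plastid pyruvate dehydrogenase, had the largest difference between the conditions of the 5 genes. The KC P+ libraries had 13.14, 14.76 and 13.97 FPKM and the KC P- libraries 2.87, 2.67 and 2.86. The phod2 P+ libraries had 13.79, 14.39 and 13.33 and the phod2 P- libraries 2.42, 2.43 and 2.7. The lines overlapped within each condition, and the conditions did not overlap. LIP2P was 4.90-fold lower in P- in KC (log2 -2.29 ± 0.096, adjusted p = 6.23e-11) and 5.27-fold lower in phod2 (-2.40 ± 0.098, adjusted p = 3.66e-11). It was the member past the 2-fold limit of the series' design text. Of all tested genes 2.02% in KC and 1.85% in phod2 fell by at least as much. The counts behind the P- values were 47 to 61 per library, or 169 over KC P- (exact 95% Poisson interval 144 to 196, counting error only) against 1000 over KC P+ (939 to 1064). DESeq2, another count test, gave an SE of 0.149 in KC and 0.152 in phod2 for these falls. The SEs above are smaller and fall below counting error alone.

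No difference of LIP2P between the lines was detected. It was -0.02 in P+ (95% interval -0.19 to 0.14, adjusted p = 0.855) and -0.13 in P- (-0.39 to 0.13, adjusted p = 0.575), and the difference between the changes with condition was -0.10 (-0.41 to 0.21, adjusted p = 0.720). DESeq2 gave -0.12 ± 0.182 in P-, where edgeR's SE was 0.122. The edgeR SEs of LIP2P that involve P- fall below counting error alone, so those intervals are too narrow. The neighbours of LIP2P were also lower in P-, as were 32.3% of all tested genes in KC and 33.6% in phod2. ERF015, an ERF-family transcription factor gene 514 bases downstream, fell by 2.40 ± 0.141 in KC and by 2.27 ± 0.140 in phod2 (log2, adjusted p = 2.55e-09 and 3.65e-09). AT4G31040, on the other side of the stretch shown above, fell by 0.59 ± 0.082 and 0.98 ± 0.083 (adjusted p = 2.32e-05 and 1.16e-07). Beside other members, FTRA2 (next to LIP1P) and SRF1 (next to LIP1) also passed as lower in P- in both lines. MEE4 (next to LIP2) and DYW1 (next to LIP2P2) passed as higher in both.

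LIP2P2, the second plastid transferase, was the lowest of the 5 genes in P+, with 20 to 63 counts per library over all groups. For KC its levels were 2.19, 1.6 and 1.69 FPKM with P+ and 3.86, 2.64 and 2.7 with P-. For phod2 they were 1.92, 2.76 and 2.29 with P+ and 2.58, 1.35 and 2.35 with P-. All KC P- libraries lay above the KC P+ libraries, while the phod2 groups overlapped. In KC it was 1.69-fold higher in P- (log2 0.76 ± 0.244, adjusted p = 0.014), a call lost without KC P- replicate 1 (0.55, adjusted p = 0.0919) and with the length trend removed (0.55, adjusted p = 0.0654). In phod2 the difference was -0.08 (95% interval -0.61 to 0.46, adjusted p = 0.798), or 0.15 without phod2 P- replicate 2 (adjusted p = 0.586). The 2 lines' changes differed by -0.84 ± 0.349, which did not pass (adjusted p = 0.146), and by -0.60 without phod2 P- replicate 2 (adjusted p = 0.198). Between phod2 and KC the differences were 0.32 in P+ (-0.22 to 0.86, adjusted p = 0.380) and -0.51 in P- (-1.04 to 0.01, adjusted p = 0.148). The P- difference was -0.31 without KC P- replicate 1 and -0.31 without phod2 P- replicate 2.

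LIP2P was most of the plastid transferase transcripts with P+, and its share was nearer to that of LIP2P2 with P-. LIP2P made up 88.4% ± 2.36 (KC) and 85.7% ± 1.96 (phod2) of their summed FPKM with P+, and 48.1% ± 4.78 and 55.4% ± 8.11 with P- (SD, n = 3). Their sum for KC was 15.8 ± 0.526 FPKM with P+ and 5.87 ± 0.758 with P-, and for phod2 16.2 ± 0.859 and 4.61 ± 0.719. Set against this sum, LIP1P for KC stood at a ratio of 1.39 ± 0.0958 with P+ and 2.73 ± 0.282 with P-, and for phod2 at 0.841 ± 0.0305 and 1.93 ± 0.318. In the 3 phod2 P+ libraries the synthase was below the plastid transferases, and in the other libraries it was above them. These ratios were chosen after the values had been seen and are not tested.

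**Figure D2:**
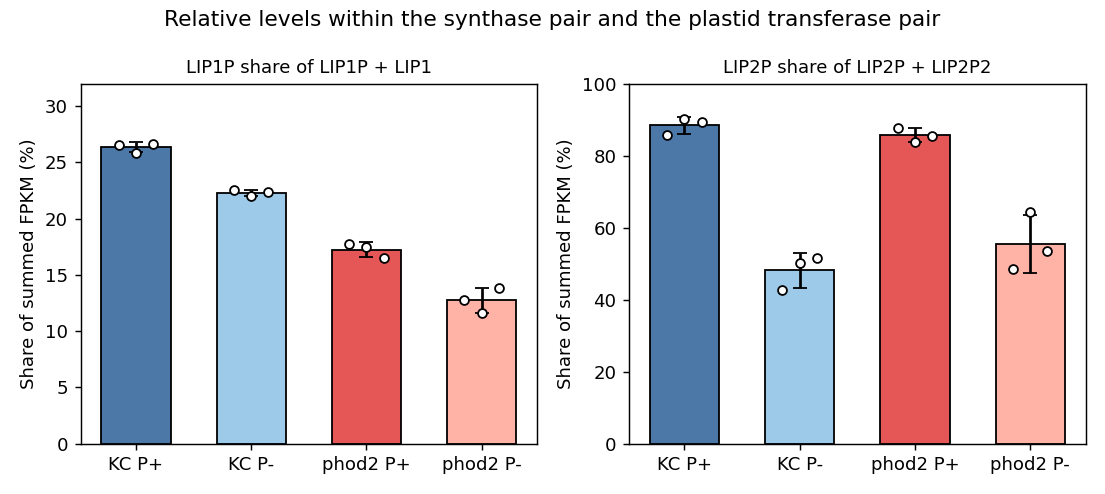
Share (percent of summed FPKM, y axis from 0, scales differ) of LIP1P in the synthase pair (left) and of LIP2P in the plastid transferase pair (right), by group. Bars are means with SD and points are libraries; the left share runs from 26.4% to 12.7% across the 4 groups, the right one from 83.9% or more in P+ to 64.3% or less in P-.

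LIP1P, LIP2 and LIP2P were lower in P- in both lines, and LIP1P was lower in phod2 in both conditions. For KC, 3 of 5 members passed as lower in P- (adjusted p no higher than 0.05) and 1 as higher, where 32.3% and 32.2% of all tested genes were. At least 2-fold lower was 1 of 5, against 9.6%. In phod2, 3 were lower and 0 higher (33.6% and 34.4% of tested genes) and 1 was at least 2-fold lower (10.3%). Between the lines, 1 of 5, LIP1P, was lower in P+ (15.6% of tested genes) and again in P- (11.6%), 0 were higher (12.5% and 11%), and 0 passed with a 2-fold difference (7.4% and 4.69%). With 5 genes these shares say little about the members as a set. The difference between the lines' responses passed for 0 of 5 members, against 12% of tested genes, with LIP2P2 at an unadjusted p of 0.0315 in edgeR.

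The groups of a comparison did not overlap for 5, 3, 3 and 3 members in the same order of the 4 pairwise comparisons, where 75.3%, 69.6%, 53.2% and 37% of all tested genes did not. The median log2 difference of the members was -0.44 and -0.57 between conditions in KC and phod2, and 0.08 and -0.13 between the lines in P+ and P-. The medians of all tested genes were 0.01, 0.01, 0.04 and 0.003.

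**Figure D3:**
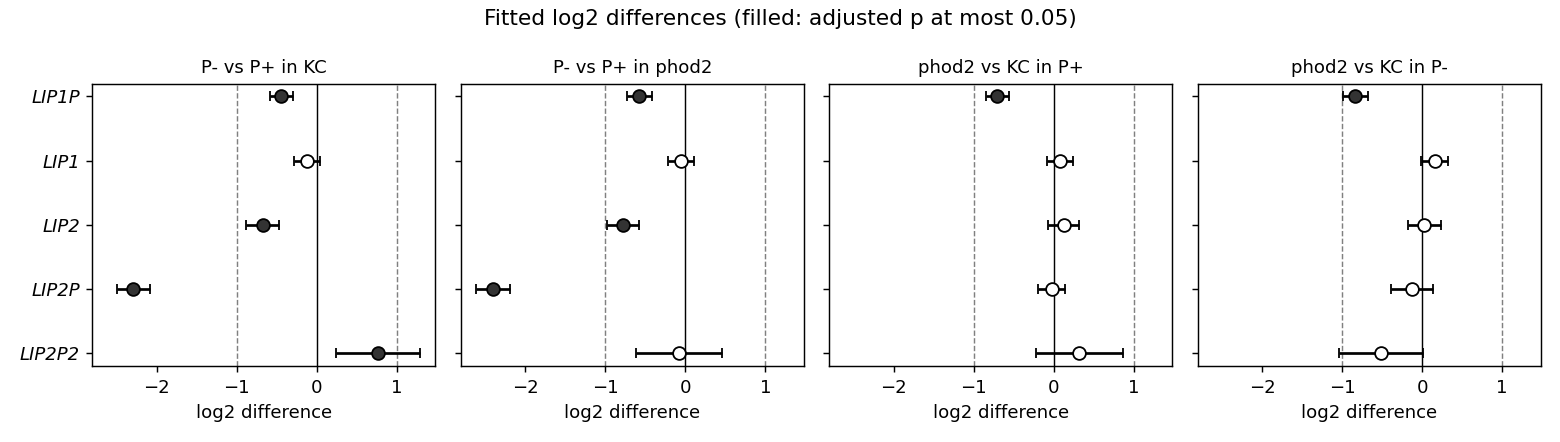
Fitted log2 difference (x axis) of each gene (y axis) in the 4 comparisons, with 95% intervals as bars and dashed lines at 2-fold. Bars of LIP2P in comparisons that involve P- are too narrow. Filled points had an adjusted p of at most 0.05: LIP1P in all 4, LIP2 and LIP2P in the P- against P+ comparisons, and LIP2P2 in KC.

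**Figure D4:**
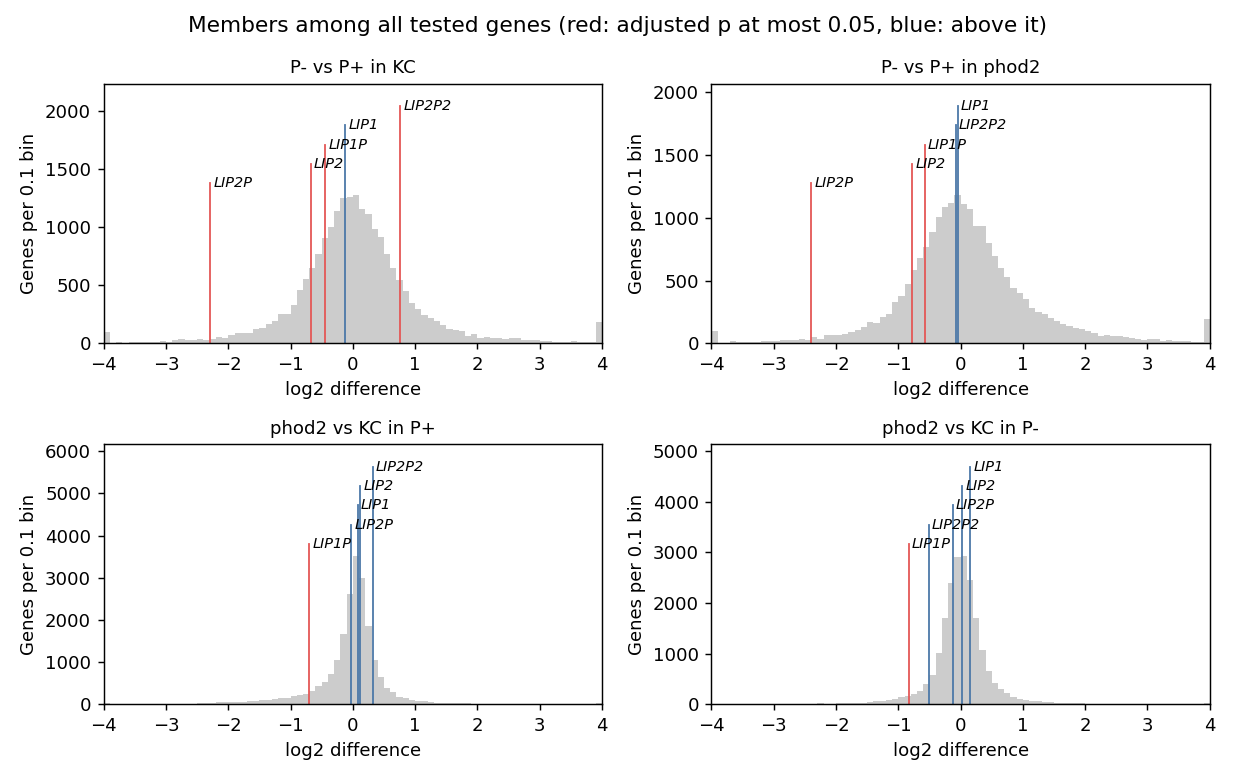
Number of tested genes (y axis) per 0.1 bin of fitted log2 difference (x axis; the end bins also hold values beyond 4), with the 5 genes as vertical lines (red at an adjusted p of 0.05 or less, blue above it), whose heights serve only to separate the names. LIP2P at -2.29 and -2.40 lies in the lower tail between conditions, and LIP1P at -0.70 and -0.83 in the lower tail between the lines.

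Clock genes differed between the conditions beside all of these differences. CCA1, a clock gene that peaks around dawn, was at 0.02 to 0.24 FPKM in P+ and 46.3 to 59.7 in P- over both lines, and COR27, an evening gene, at 80.2 to 87.8 in P+ and 0.1 to 0.19 in P-. With no harvest time in the labels, time of day and phosphate supply cannot be told apart for the falls of LIP2P, LIP2 and LIP1P in P-. SPX1, a gene induced by phosphate starvation, went from 5.32 ± 0.397 FPKM with P+ to 111 ± 4.97 with P- in KC and from 45.6 ± 1.86 to 403 ± 28.0 in phod2 (SD, n = 3), so it was also higher in phod2 than in KC within each condition. Some clock gene ranges also stood apart between the lines, which was not tested. CCA1 in P- was 56.5 to 59.7 in KC and 46.3 to 55.1 in phod2, and COR27 in P+ was 80.2 to 83.0 in KC and 86.8 to 87.8 in phod2, with no overlap. COR27 in P- did not overlap either, at very low levels (0.13 to 0.19 and 0.1 to 0.12), and CCA1 in P+ did (0.06 to 0.24 and 0.02 to 0.13). Of all tested genes 53.2% in P+ and 37% in P- did not overlap between the lines in CPM. The part of the clock gene and SPX1 differences in those of LIP1P between the lines was not tested.

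The 5 genes did not share 1 profile. Over the 12 libraries, with each gene centred on its mean log2 CPM, the root mean square difference between 2 members was smallest for LIP1 and LIP2 (0.33) and largest for LIP2P and LIP2P2 (1.34). The plastid synthase and the main plastid transferase, LIP1P and LIP2P, were 0.97 apart. The tested genes most like LIP1P by this measure were ATCTH, a CCCH zinc finger gene (0.11), COR47, a dehydrin gene (0.12), and the peroxidase gene PER51 (0.12), and 51 genes lay within 0.2, where the median gene was 0.57 away. For LIP2P, looked up after its values had been seen, they were VDE1, which encodes violaxanthin de-epoxidase (0.08), sks5 (0.10) and RD19A, a cysteine protease gene (0.11), with a median gene at 1.19. VDE1 fell from a mean of 67.2 FPKM in P+ to 13.7 in KC P- and 12.9 in phod2 P-.

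The 6 lists of other pathway genes held 39 genes, of which 38 were tested, and SUFE1 (AT4G26500) was listed at 0 in every library. Between phod2 and KC, 4 were higher and 3 lower in P+ at the same threshold, and 4 higher and 7 lower in P-, none by 2-fold, with median log2 differences of 0.02 and -0.01. Of all tested genes 12.5% were higher and 15.6% lower in P+, and 11% and 11.6% in P-. In P+ none of 7 genes of the plastid pyruvate dehydrogenase complex passed (range -0.15 to 0.06), and in P- 2 of 7 were lower (range -0.30 to 0.01). GDH2, an H protein gene of glycine decarboxylase, had the largest difference of the mitochondrial lipoylated subunits (2 of 9 lower in P+), at 52.1 FPKM in KC and 33.6 in phod2 (log2 -0.65 ± 0.122, adjusted p = 0.00118). In P- its difference was -0.04 ± 0.118 (87.8 and 83.2 FPKM, adjusted p = 0.829), and the difference between the lines' responses passed (0.60 ± 0.169, adjusted p = 0.0329). In P- 3 of the 9 were lower and 1, another H protein gene, GDH1, was higher (0.44 ± 0.117, adjusted p = 0.0148). The H protein gene GDH3 did not pass in P+ (0.16, adjusted p = 0.353) or in P- (0.20, adjusted p = 0.246). Over the 38 pathway genes, the difference between the lines' responses passed upward for 1, GDH2, and downward for 1. The latter was LPD1 (AT3G16950) of the plastid complex (-0.31 ± 0.096, adjusted p = 0.0495). Of all tested genes 12% passed in either direction.

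Of 4 genes for mitochondrial octanoyl supply, KAS, the ketoacyl synthase gene, was higher in phod2 in P+ (0.33 ± 0.098, adjusted p = 0.0201). Of 11 tested plastid iron-sulfur assembly genes 2 were higher, NIFU3 among them (0.30 ± 0.082, adjusted p = 0.0144), and 0 of 5 mitochondrial ones passed in P+. Of the 2 mitochondrial lipoamide dehydrogenase genes, LPD2 (AT3G17240) was lower (-0.18 ± 0.059, adjusted p = 0.0361) and LPD1 (AT1G48030) was higher (0.16 ± 0.045, adjusted p = 0.0156). In P- KAS (-0.03, adjusted p = 0.876), NIFU3 (0.14, adjusted p = 0.248) and LPD1 (AT1G48030; 0.06, adjusted p = 0.360) did not pass, and LPD2 (AT3G17240) was again lower (-0.23 ± 0.059, adjusted p = 0.0142). Of the plastid iron-sulfur genes 2 were higher and 1 lower in P-, and of the mitochondrial ones 1, the scaffold gene ISU1, was higher (0.34 ± 0.109, adjusted p = 0.0381). GDH1, GDH3, ISU1 and LPD1 (AT1G48030 and AT3G16950) were named after their values had been seen.

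Between conditions, 20 of 38 pathway genes were higher and 6 lower in P- in KC, where 32.2% and 32.3% of all tested genes were. In phod2 19 were higher and 8 lower (34.4% and 33.6% of tested genes). The median log2 differences over the 38 genes were 0.21 in KC and 0.14 in phod2. At least 2-fold, GRXS14, a plastid glutaredoxin gene, was higher and BCE2, the E2 gene of the branched-chain dehydrogenase, and KAS were lower in KC. In phod2 the same 3 genes passed that limit in the same directions, and GDH2 and the mitochondrial acyl carrier protein genes AT2G44620 and AT1G65290 were also higher. At least 2-fold lower were thus 2 of 38 in each line, against 9.6% of all tested genes in KC and 10.3% in phod2. The share of all tested genes at least 2-fold higher is not given here. KAS, whose product makes the octanoyl precursor, went from 9.73 to 3.97 FPKM in KC (log2 -1.28 ± 0.112, adjusted p = 2.00e-07) and from 12.4 to 3.81 in phod2 (-1.64 ± 0.110, adjusted p = 9.15e-09). BCE2 went from 28.9 to 14.0 in KC and from 27.6 to 12.7 in phod2. Apart from KAS and GDH2, the genes of this paragraph were singled out after their values had been seen.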

How the data were processed

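The authors deposited 1 table with counts and FPKM for 12 libraries, per the file headers. Aligner, counting program and strand setting are not given in the sources used here. Deposited FPKM values equalled those recomputed from counts, exonic length and library totals (100% within 0.006). The submitters' processing notes name a mouse build, whereas 99.95% of 32548 matched genes had the start and end of RefSeq's TAIR10.1 annotation, the source of sequences here. The KC P+ columns, headed WT, were matched to samples by condition and replicate number. The design text states 3 biological replicates.

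Counts were scaled by TMM, filtered with filterByExpr (smallest count 10) and tested with edgeR 4.0.16 (R 4.3.3) in 1 quasi-likelihood fit of 4 group means over 12 libraries, with Benjamini-Hochberg adjustment over 20891 genes. SE is the log2 difference over the square root of F. Intervals rest on this SE, and both can be too narrow for genes with few counts, as they are for LIP2P where P- is involved. The script was tested on simulated data. Alternatives used DESeq2 1.42.0 and limma 3.58.1. Members and lists were chosen with earlier results of these data known; pathway genes named are the one with the largest passing difference between the lines in P+ per list, and LIP1P's 3 most alike genes. LPD1 (AT1G48030 and AT3G16950), GDH1, GDH3, ISU1, GRXS14, BCE2, 2 acyl carrier protein genes and the genes most like LIP2P fall outside this rule. They were named after their values had been seen, as were the neighbouring, clock and phosphate-response genes. Libraries were not treated as paired by replicate number in the main fit (same-number correlations -0.06 to 0.06). Such correlations do not settle whether the numbers mark shared batches.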

Additional observations from a re-analysis of the deposited data

How the results depend on the processing

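Each of 25 member results was recomputed under 20 alternatives, and 476 of 500 values kept their direction and side of the threshold. All values of LIP1P, in every comparison, and those of LIP2 and LIP2P between conditions did so (LIP1P -0.73 to -0.65 between the lines in P+ and -0.86 to -0.78 in P-; LIP2P -2.40 to -1.98 in KC and -2.61 to -2.08 in phod2). LIP1 between conditions in KC passed in limma on log2(FPKM + 1) and log2(FPKM + 0.1) (both -0.14), and over single left-out libraries ran from -0.14 to -0.10. In phod2 it was 0.040 with the length trend removed and 0.038 with the replicate block as well, and ran from -0.12 to 0.0078 over left-out libraries. Between the lines in P- it passed with the length trend removed (0.21, and 0.21 with the block). LIP2P2 in KC missed the threshold with the length trend removed (0.55, and 0.56 with the block) and ran from 0.55 to 0.92 over left-out libraries; in phod2 it ran from -0.25 to 0.15. LIP2P between the lines in P+ was 0.0043 and 0.0034 in the length fits and ran from -0.065 to 0.014 over left-out libraries. LIP2 between the lines in P- was -0.0093 and -0.0097 on the FPKM scales, -0.034 and -0.033 in the length fits, and ran from -0.090 to 0.095 over left-out libraries. The cause was not tested.

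Genes passing numbered 5878 between the lines in P+, or 4590 to 9557 over left-out libraries, with 9557 without phod2 P- replicate 2. For the interaction they numbered 2501, or 4262 with the length trend removed, 4099 with the block as well, and 1828 to 5062 over left-out libraries, with 5062 without that library. The labels do not say that numbers pair libraries, 0 of 18 same-number correlations exceeded 0.1, and 2 of 12 libraries correlated best with their own number. The replicate block gave 13355, 14073, 5579, 4397 and 2198 genes for the 5 comparisons in place of 13483, 14200, 5878, 4712 and 2501. Depth limits LIP2P2 most, with 20 counts in its lowest library.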
